A study of Mus musculus with 5 samples.

Results

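The 8 genes described here (Adrb3, Dio2, Prdm16, Ucp1, Ucp2, Ucp3, Cidea and Elovl3) are genes of heat production and mitochondrial uncoupling, out of 21755 protein-coding genes on the chromosomes analysed. They were taken by name, and no measured value enters the rule. Each was described by its window, which was the GENCODE M21 gene body with 10 kb on each side (mouse build mm10), and by every region enriched for macroH2A1.2 that overlapped the window by at least 1 bp. Where no region overlapped, the distance to the nearest region was measured.

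Brown and beige fat cells burn fuel to make heat. Noradrenaline acts on beta-adrenergic receptors, cAMP rises, and the released fatty acids and a gene programme that includes Ucp1 let protons leak back across the inner mitochondrial membrane without making ATP. White fat cells, the type that 3T3-L1 cells usually form, normally keep this programme low. MacroH2A1.2 is a splice form of a histone H2A variant with a large extra domain, and it tends to lie in broad chromatin domains.

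The samples were chromatin of 3T3-L1 cells, a mouse fibroblast line that can be turned into fat cells. All cells carried a lentiviral transgene for stable expression of macroH2A1.2 fused to GFP, and the precipitation used an anti-GFP antibody, so only the tagged protein was measured. Pre-adipocytes (2 replicates) were not differentiated, and mature adipocytes (2 replicates) had been induced with IBMX, dexamethasone and insulin for 60 h and then kept without IBMX and dexamethasone. A single library made without antibody served as the control of all 4 ChIP samples. The study asked whether the variant's place in the genome changed on differentiation.

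Several properties of the samples bear on every value below. The description fields of both mature samples named the state before differentiation, and that of the control named an anti-GFP sample of GFP cells, against its title and antibody field. The groups here follow the sample titles, and every fold below rests on that control being the library without antibody. The methods text on chromatin names mouse adipose tissue, whereas the labels name the cell line. Expression of fat cell markers was not measured in these files, so the differentiation state was not checked. The study reports less lipid in differentiated cells with this transgene than in differentiated cells with GFP alone. It proposes that the variant might impair differentiation into fat cells. The word mature is thus the name of the samples here, not a measured state. The ChIP library of pre-adipocyte replicate 2 was the shallowest, at 0.549 times the control library, against 1.20 to 1.23 times in the other 3 samples. Its regions held 2833105 ChIP reads, against 9876187 to 11592708 in the others. The samples had between 36468 and 61196 regions, with median lengths from 3000 to 5800 bp.

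Regions lay at 6 of the 8 genes in at least 1 sample, against 51.9% of all protein-coding genes. Adrb3, Cidea and Elovl3 had a region in all 4 samples, a pattern held by 20.3% of all genes. Prdm16 had regions in both mature samples and in no pre-adipocyte sample, as did 4.73% of all genes, and none of the 8 showed the converse, which 0.896% of all genes did. Ucp1 had regions in replicate 1 of both conditions alone (1.25% of all genes), and Ucp3 had one in pre-adipocyte replicate 2 alone (2.0% of all genes). Ucp2 and Dio2 had none, like 48.1% of all genes. With 8 genes, none of these counts was read as a property of the group.

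Per sample, 4 of the 8 genes had a region in pre-adipocyte replicate 1 (33.7% of all genes) and 4 in replicate 2 (29.3% of all genes). In mature adipocytes the counts were 5 in replicate 1 (40.0% of all genes) and 4 in replicate 2 (40.2% of all genes). The mean count differed by 0.5 genes between conditions (exact permutation test, two-sided, p = 1). The 4 samples held 6, 9, 14 and 10 regions at the 8 genes, in the order pre-adipocyte replicates 1 and 2, then mature replicates 1 and 2. The fold of these 39 regions over the control, scaled to library size, ran from 1.31 to 4.68. Of the 39, 2 covered a transcription start of the basic GENCODE set, at Ucp1 and at Adrb3, both in pre-adipocyte replicate 1. The share of all regions that cover a start was not computed, so this count was not read as a property of these genes.

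**Figure D1:**
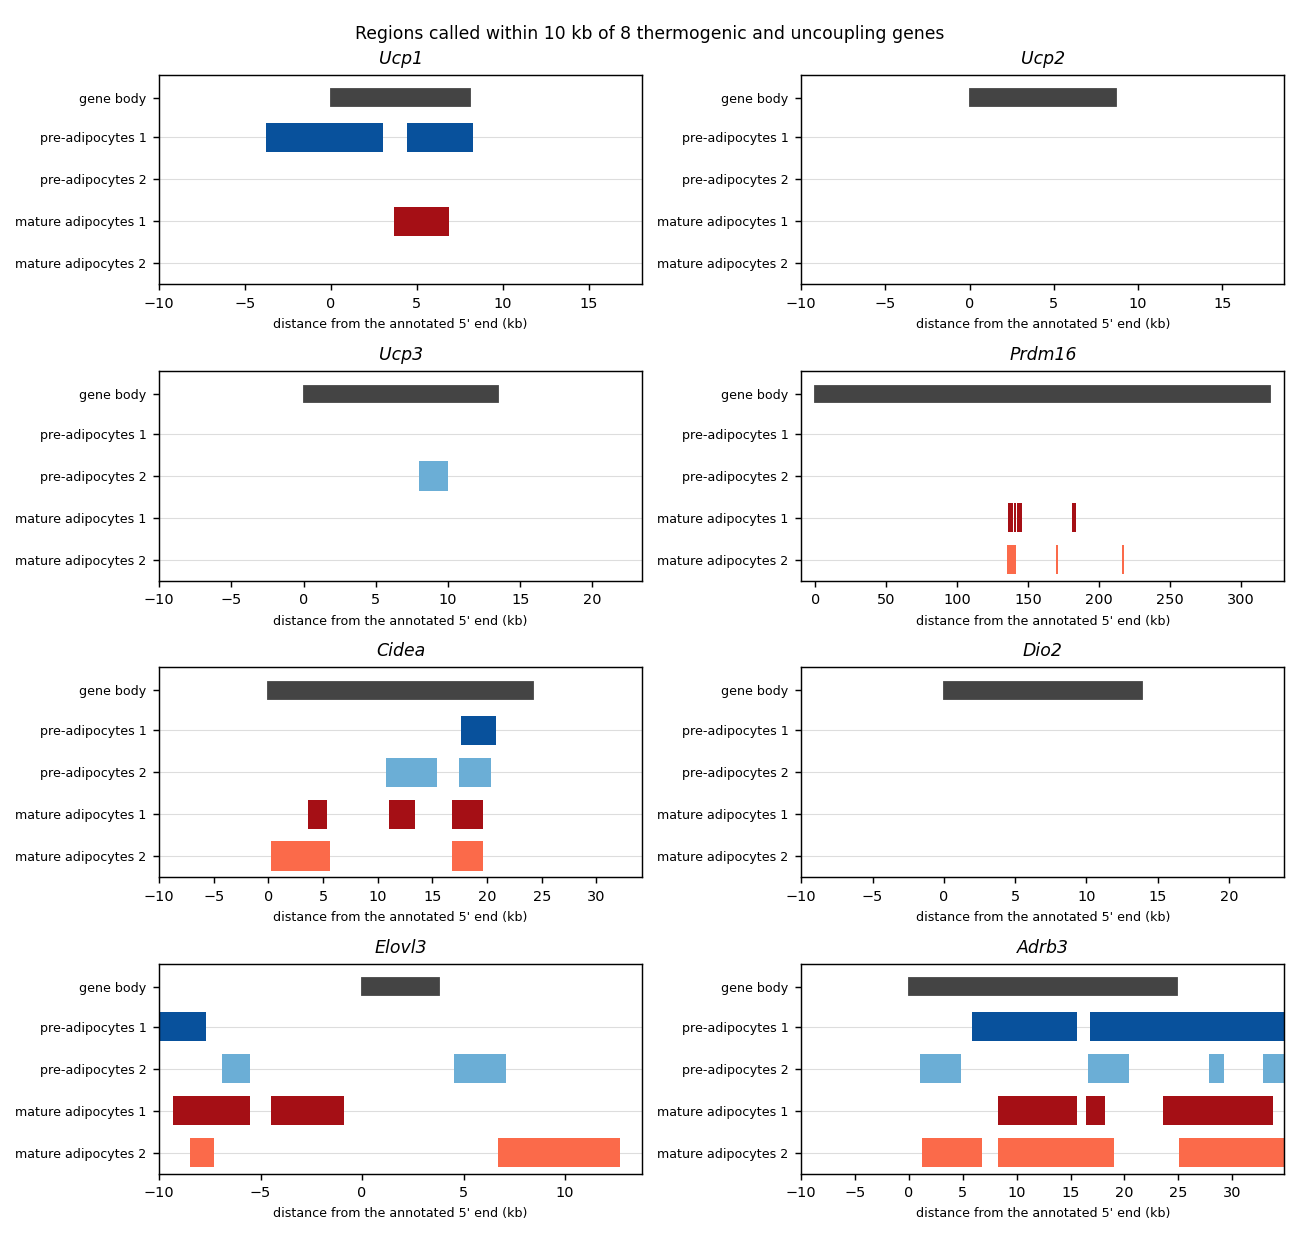
Regions called in each sample within 10 kb of the 8 genes, with the distance in kb from the annotated 5′ end of the gene in the direction of transcription on the x axis. Each row is 1 sample, each bar is 1 region and the grey bar is the gene body. Ucp2 and Dio2 are empty, Prdm16 has bars in the 2 mature samples alone, and Adrb3 has bars in every sample.

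Adrb3 encodes the beta3-adrenergic receptor, the main receptor through which noradrenaline reaches fat cells in rodents. Its annotated body lies on the minus strand at chr8:27225776-27250616. The longest protein-coding transcript of the basic GENCODE set takes up chr8:27225776-27229588 alone, and the rest of the body lies outside it. It was the most widely covered of the 8 windows. Regions covered 62.1% and 24.6% of the window in pre-adipocyte replicates 1 and 2, and 43.3% and 58.5% in mature replicates 1 and 2. The 2 mature values fell between the 2 pre-adipocyte values, so the conditions overlapped. In each sample this coverage was above that of 94.7% to 97.6% of all protein-coding genes.

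Enrichment at Adrb3 was broad, with low folds. Its regions held 17.6 to 28.6 control reads per kb, against 7.14 to 14.4 at Prdm16. Scaled to library size, their ChIP reads per kb ran from 29.6 to 59.9, against 23.8 to 43.8 at Prdm16. The low folds thus do not show fewer ChIP reads than at Prdm16. Of the 13 regions at Adrb3, the longest was chr8:27208601-27233800 in pre-adipocyte replicate 1, at 25200 bp. It had 923 reads in the ChIP and 520 in the control, a fold of 1.48. That region covered all 4 exons of the coding transcript and its start. In mature replicate 1 a region of 10200 bp reached exons 3 and 4 of the same transcript, with a fold of 1.72. Neither pre-adipocyte replicate 2 nor mature replicate 2 had a region over the coding exons. Joined across samples, the regions formed 1 block of 41800 bp (chr8:27207801-27249600), which also overlapped the neighbouring gene Got1l1. Its fold was 1.46 and 1.60 in pre-adipocytes, and 1.68 and 1.43 in mature adipocytes. The difference in ChIP reads per called base, mature against pre-adipocytes, was 0.03 on the log2 scale (SE 0.07, adjusted p = 0.921, edgeR quasi-likelihood test with Benjamini-Hochberg adjustment). Within the block, the called length was 35000 and 17200 bp in pre-adipocytes, and 26600 and 34200 bp in mature adipocytes. Such differences in called length do not enter this value. In all 4 samples together, 3825 bp of the window were shared.

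Dio2 encodes type 2 iodothyronine deiodinase, which turns thyroxine into the active hormone T3 inside brown fat cells. The gene lies on the minus strand at chr12:90724552-90738438. No sample had a region within 10 kb, and the nearest was always on the upstream side. That distance was 991 kb in pre-adipocyte replicate 1 and 203 kb in replicate 2. In mature adipocytes it was 128 kb in replicate 1 and 189 kb in replicate 2. Dio2 was the single protein-coding gene in its 500 kb surroundings. These surroundings held 0 and 1 regions in pre-adipocytes, and 3 and 7 in mature adipocytes. The region nearest to the gene, chr12:90866001-90867800 in mature replicate 1, held 62 ChIP reads against 32 in the control, a fold of 1.58 (95% counting interval 1.01 to 2.5).

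Prdm16 encodes a zinc finger regulator that drives brown and beige fat identity. It is a long gene on the minus strand at chr4:154316125-154636873, and its window measured 340749 bp against a median of 37414 bp over all protein-coding genes. Neither pre-adipocyte sample had a region in the window. The nearest region was 610 kb upstream in replicate 1 and 103 kb downstream, at Megf6, in replicate 2. Mature replicate 1 had 4 regions with 421 ChIP and 112 control reads in all, a pooled fold of 3.06. Mature replicate 2 had 3 regions with 355 ChIP and 92 control reads, a pooled fold of 3.20. Both mature samples were thus enriched where both pre-adipocyte samples had no region.

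All 7 regions at Prdm16 lay inside introns, and none touched an exon or a start. On the longest protein-coding transcript, which has 17 exons, 4 of them were in intron 2 and 3 in intron 3. The replicates met in intron 2, where mature replicate 2 had chr4:154495401-154502000 with 230 ChIP and 59 control reads (fold 3.23, 95% counting interval 2.42 to 4.38). Mature replicate 1 had 2 regions on the same stretch with 222 ChIP and 53 control reads (fold 3.41, interval 2.52 to 4.70). The replicates shared 5200 bp there. Outside this stretch they had no base in common. Folds of the 7 regions ran from 2.19 to 4.64, and their FDR values were all at most 3.83e-11.

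A region can be missing from a list because the library was too shallow to call it. If the 7 mature folds held in pre-adipocytes, the scaled control counts would give 55.8 to 229 reads per region in replicate 1 and 25.5 to 105 in replicate 2. For each of the 7, both pre-adipocyte lists did hold regions elsewhere with like control counts (within 10%) and a lower fold. The share with a lower fold ranged widely. It was lowest for chr4:154419001-154420600 (11.6% in replicate 1 and 20.7% in replicate 2) and for chr4:154465801-154467000 (16.7%, of 6 such regions, and 29.3%). Their folds lay below the median fold of such regions in each pre-adipocyte list. For the region of mature replicate 2 on the shared stretch, such regions of pre-adipocyte replicate 1 had a lowest fold of 1.38 and a median of 1.74. Those of replicate 2 had a lowest fold of 1.57 and a median of 1.89. Reads outside called regions were not analysed here, so a weaker signal in pre-adipocytes could not be measured. Long windows meet a region more easily, and of the 1138 genes with a window of at least 200000 bp, 62 (5.45%) had the pattern of Prdm16 and 15 (1.32%) the converse.

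**Figure D2:**
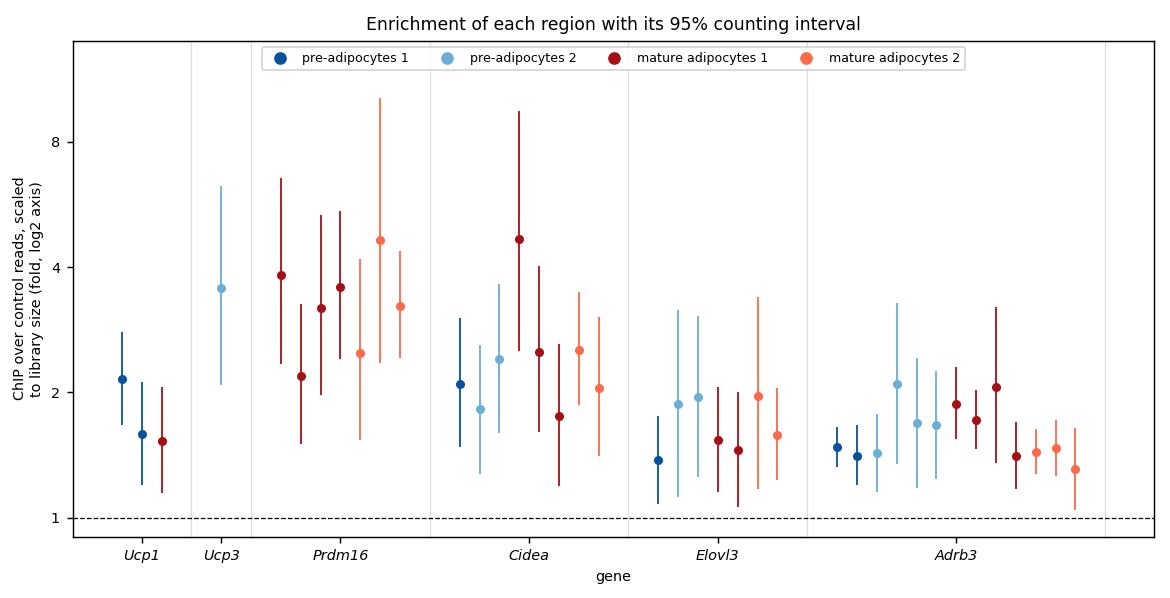
Fold of each region over the control, scaled to library size, on a log2 axis, by gene and sample. Each point is 1 region and each line its 95% counting interval. The 7 Prdm16 regions sit between 2.19 and 4.64, and the 13 Adrb3 regions between 1.31 and 2.10. Control reads per kb were 7.14 to 14.4 at Prdm16 and 17.6 to 28.6 at Adrb3, so the folds do not compare ChIP reads alone.

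Ucp1 encodes uncoupling protein 1, the proton channel that makes brown fat thermogenic. It lies on the plus strand at chr8:83290352-83298452. Pre-adipocyte replicate 1 had 2 regions that together covered 37.7% of the window. The first, chr8:83286601-83293400, ran from upstream over the start to exon 2, with 220 ChIP and 85 control reads (fold 2.15, 95% counting interval 1.67 to 2.80). The second, chr8:83294801-83298600, covered exons 5 and 6 with 147 ChIP and 77 control reads (fold 1.59). Mature replicate 1 had 1 region, chr8:83294001-83297200, over exons 3 to 5, with 137 ChIP and 73 control reads (fold 1.53), and 11.4% of the window was covered. Pre-adipocyte replicate 2 and mature replicate 2 had none, with the nearest region 12.0 and 12.6 kb upstream. Regions were thus present in replicate 1 and missing in replicate 2 of both conditions, so neither condition had a region at Ucp1 in both of its replicates.

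For the region over the Ucp1 start, 85.7% of the regions listed in pre-adipocyte replicate 2 at like control counts had a lower fold. In mature replicates 1 and 2 those shares were 89.5% and 88.6%. For the region of mature replicate 1 over exons 3 to 5, the share was 1.56% in pre-adipocyte replicate 2 and 27.6% in mature replicate 2. A fold of that size was thus near the lowest that the shallow library listed.

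The promoters are shown because, among those with a RefSeq sequence here, that of Ucp1 alone lay inside a region. Dio2, Ucp2 and Ucp3 give a comparison with promoters that did not. The Prdm16 promoter, also outside every region, is described below without its sequence. RefSeq (GRCm38.p6) gave 300 bases, from 250 before to 50 after the start, for 5 of the 8 genes, namely Ucp1, Ucp2, Ucp3, Dio2 and Prdm16. Capitals mark TGACG, the half-site of the cAMP response element, and its reverse complement CGTCA. The sequences are given 5′ to 3′ on the strand of the gene.
Ucp1, chr8:83290098-83290397, plus strand: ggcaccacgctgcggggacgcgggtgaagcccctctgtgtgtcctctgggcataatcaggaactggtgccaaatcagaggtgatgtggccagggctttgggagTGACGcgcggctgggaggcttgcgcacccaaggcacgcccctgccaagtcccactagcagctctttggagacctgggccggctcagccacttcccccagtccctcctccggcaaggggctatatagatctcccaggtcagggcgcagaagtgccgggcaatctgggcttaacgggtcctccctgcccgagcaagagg
Dio2, chr12:90738989-90739288, minus strand: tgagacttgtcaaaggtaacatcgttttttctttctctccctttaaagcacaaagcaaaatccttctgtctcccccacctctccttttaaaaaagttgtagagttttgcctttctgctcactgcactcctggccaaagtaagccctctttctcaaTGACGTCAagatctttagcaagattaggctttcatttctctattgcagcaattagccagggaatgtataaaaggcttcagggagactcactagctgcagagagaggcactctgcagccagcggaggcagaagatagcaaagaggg
Ucp2, chr7:100493108-100493407, plus strand: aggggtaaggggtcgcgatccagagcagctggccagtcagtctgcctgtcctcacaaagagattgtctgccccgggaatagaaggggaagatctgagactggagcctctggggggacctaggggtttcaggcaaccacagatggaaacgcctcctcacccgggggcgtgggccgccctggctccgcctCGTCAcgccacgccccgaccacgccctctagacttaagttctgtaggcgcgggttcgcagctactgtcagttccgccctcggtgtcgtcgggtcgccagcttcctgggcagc
Ucp3, chr7:100472741-100473040, plus strand: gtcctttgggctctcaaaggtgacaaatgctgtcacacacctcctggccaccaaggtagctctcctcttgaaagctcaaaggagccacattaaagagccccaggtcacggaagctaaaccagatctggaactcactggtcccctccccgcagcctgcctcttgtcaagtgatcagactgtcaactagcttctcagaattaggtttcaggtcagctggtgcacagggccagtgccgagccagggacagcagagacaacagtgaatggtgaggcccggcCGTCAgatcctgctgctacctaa

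The Ucp1 promoter held 1 half-site on the plus strand, starting 147 bases before the RefSeq start, inside the region of pre-adipocyte replicate 1. Dio2 held the full palindrome, so its 2 matches overlap on opposite strands. Its RefSeq start lies upstream of the GENCODE gene body, and the promoter also had a TATAAA 30 bases before that start. Ucp2 and Ucp3 held 1 match each, both on the minus strand. Prdm16 had none. Of 32851 RefSeq promoters of this length, 20.8% held TGACG on either strand and 13.6% held TATAAA. CpG dinucleotides numbered 15 at Ucp1, 21 at Ucp2, 5 at Ucp3, 3 at Dio2 and 24 at Prdm16, against a median of 7 over all promoters. The Ucp1 promoter, with a region in 1 sample, had fewer than those of Ucp2 and Prdm16 and more than those of Ucp3 and Dio2. None of these others lay inside a region.

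Ucp2 and Ucp3 encode relatives of Ucp1 in the inner mitochondrial membrane, and neither is held to make brown fat heat as Ucp1 does. They are neighbours on the plus strand of chromosome 7, with Ucp3 at chr7:100472990-100486432 and Ucp2 at chr7:100493337-100502020, 6904 bp apart. Their windows shared 13096 bp, so they are not independent. The single region of the pair was chr7:100481001-100483000 in pre-adipocyte replicate 2, over exons 5 and 6 of Ucp3. It had 43 ChIP and 22 control reads, a fold of 3.56 (95% counting interval 2.08 to 6.25) and an FDR of 1.23e-11. It ended 10.3 kb before the Ucp2 body, just outside the window of Ucp2.

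The other 3 samples had no region anywhere near the pair. Their nearest region was 248 to 251 kb upstream of Ucp3 and 269 to 271 kb upstream of Ucp2. The region of pre-adipocyte replicate 2 came from the shallowest library, and its fold would give 94.2 to 96.2 reads in each of the deeper ones. At like control counts, 95.9% and 96.3% of the regions listed in mature replicates 1 and 2 had a lower fold. In pre-adipocyte replicate 1 that share was 73.3%. A weaker signal in these samples could not be measured.

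Elovl3 encodes a fatty acid elongase that is strongly induced in brown fat by cold. It lies on the plus strand at chr19:46131897-46135694. Regions were found in its flanks in all 4 samples and over its body in none. They covered 9.68% and 16.8% of the window in pre-adipocyte replicates 1 and 2, and 31.1% and 30.3% in mature replicates 1 and 2. At this flank of 10 kb both mature values were above both pre-adipocyte values, with a mean difference of 17.4 percentage points. That order depended on the setting. With a flank of 20 kb, pre-adipocyte replicate 1 (26.3%) was above mature replicate 2 (25.1%) and the difference was 6.39 points. Among regions that overlapped the other replicate, the same 2 samples had 9.68% and 5.04% and the difference was 5.66 points. At a fold of at least 2 all 4 values were 0.

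The upstream regions of Elovl3 joined into 1 block of 8400 bp, chr19:46118001-46126400. Its fold was 1.37 and 1.86 in pre-adipocytes, and 1.54 and 1.64 in mature adipocytes, so the conditions overlapped. The difference in ChIP reads per called base was 0.12 on the log2 scale (SE 0.15, adjusted p = 0.854, edgeR quasi-likelihood test with Benjamini-Hochberg adjustment). It turned to −0.27 without the correction for called length. A second upstream region, closer to the start, was called in mature replicate 1 alone (114 ChIP and 64 control reads, fold 1.45). Downstream regions in pre-adipocyte replicate 2 (fold 1.95) and mature replicate 2 (fold 1.58) also overlapped Pitx3, a homeobox gene, so they cannot be assigned to Elovl3 alone.

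**Figure D3:**
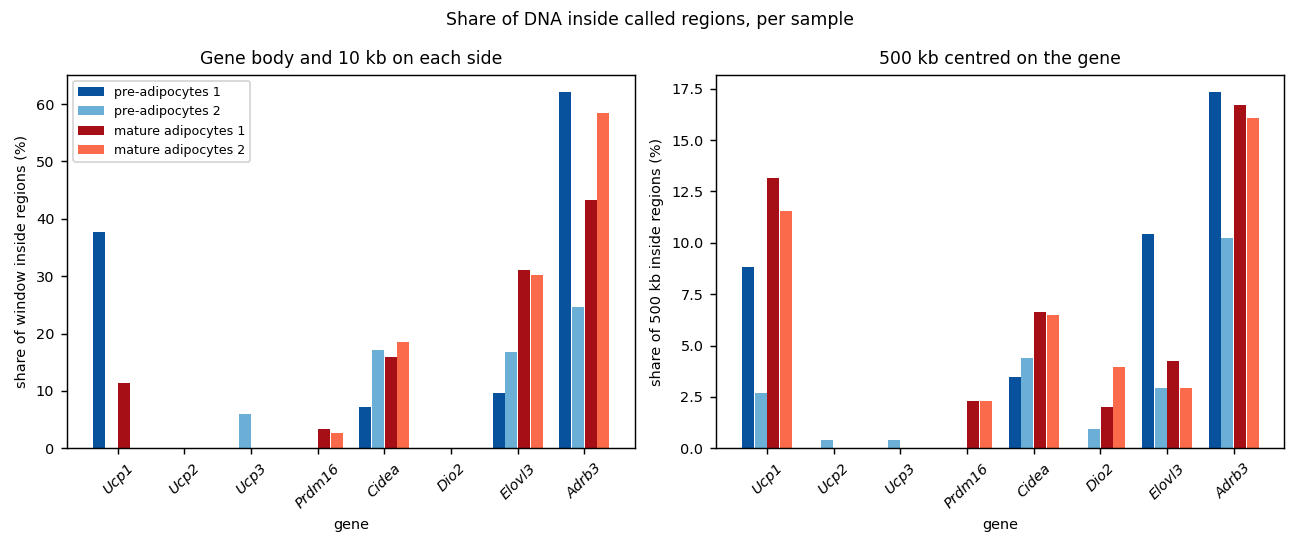
Share of the DNA inside called regions, in percent, for each gene and sample. The left panel shows the gene body with 10 kb on each side and the right panel the 500 kb centred on the gene, with 1 bar per sample. In the left panel both mature bars of Elovl3 (31.1% and 30.3%) stand above both pre-adipocyte bars, an order that did not hold with 20 kb flanks, and at Ucp1 the bars are those of replicate 1 of each condition.

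Cidea encodes a lipid droplet protein of brown and beige fat cells. It lies on the plus strand at chr18:67343604-67367785. A region in intron 3 was called in all 4 samples and 2000 bp of it were common to all of them. Over the joined block, chr18:67360401-67364400, the fold was 2.10 and 2.40 in pre-adipocytes, and 1.75 and 2.05 in mature adipocytes. The difference in ChIP reads per called base was −0.26 on the log2 scale (SE 0.19, adjusted p = 0.722, edgeR quasi-likelihood test with Benjamini-Hochberg adjustment). It was −0.69 without the correction for called length. Cidea and Adrb3 were the 2 genes of the 8 with bases inside the regions of all 4 samples.

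The 5′ part of Cidea had regions in mature adipocytes alone, like Prdm16. The share of all joined regions with this pattern was not computed, so it was not read as particular to Cidea. The mature samples had 59375 and 61196 regions in all, against 36468 and 38546 in pre-adipocytes. Mature replicate 1 had chr18:67347201-67349000 with 69 ChIP and 12 control reads (fold 4.68, 95% counting interval 2.52 to 9.5), inside intron 1. Mature replicate 2 had chr18:67343801-67349200 with 174 ChIP and 57 control reads (fold 2.53, interval 1.87 to 3.48), which took in exon 1. Neither pre-adipocyte sample had a region there. At the control counts of the longer of these regions, 97.0% of the regions listed in pre-adipocyte replicate 1 and 93.5% of those in replicate 2 had a lower fold. For the shorter one those shares were 12.5%, of 8 such regions, in replicate 1 and 59.4% in replicate 2, so it lay closer to the lowest folds listed there. Another stretch was called in pre-adipocyte replicate 2 (fold 1.82), from intron 1 over exon 2 into intron 2. In mature replicate 1 the region on this stretch (fold 2.5) lay inside intron 1. Over the whole window the share covered was 7.24% and 17.2% in pre-adipocytes, and 15.8% and 18.6% in mature adipocytes, so the conditions overlapped.

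Of the 12857 joined regions called in all 4 samples, 11 (0.0856%) passed the edgeR quasi-likelihood test at an adjusted p under 0.05 between conditions. Leaving out 1 library moved this count to 224 (without pre-adipocyte replicate 2), 112 (without pre-adipocyte replicate 1), 5 (without mature replicate 1) or 1 (without mature replicate 2). The 8 genes had 15 joined regions, of which the 3 named above, at Adrb3, Elovl3 and Cidea, were called in every sample and could be tested. None passed, and none had an unadjusted p under 0.05 (1176 of all 12857 did) or passed with DESeq2. The stretches at Prdm16, Ucp1, Ucp3 and the 5′ part of Cidea were outside this test.

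Taking the 8 windows as one stretch of DNA, regions covered 7.78% and 4.36% of it in pre-adipocyte replicates 1 and 2, and 8.61% and 9.04% in mature replicates 1 and 2. The means differed by 2.75 percentage points (exact permutation test, two-sided, p = 0.33, the smallest possible). Without the shallow pre-adipocyte replicate 2 the difference was 1.04 percentage points, and without pre-adipocyte replicate 1 it was 4.46. The median share over the 8 windows was 3.62%, 2.99%, 7.40% and 1.38% in the same order of samples, and the median over all protein-coding genes was 0 in each. All regions of a sample together covered 280 and 139 Mb in pre-adipocytes, and 294 and 285 Mb in mature adipocytes. The difference between conditions was thus not particular to these windows. The Prdm16 window, at 340749 bp, was the longest part of the joined stretch.

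The 500 kb surroundings also differed from gene to gene. In the 500 kb centred on Adrb3, 17.3% and 10.2% was covered in pre-adipocytes, and 16.7% and 16.1% in mature adipocytes. Around Ucp1 the share was 8.84% and 2.68% in pre-adipocytes, and 13.2% and 11.6% in mature adipocytes. The Ucp1 gene of mature replicate 2 was thus without a region in surroundings that held 12 of them. Around Ucp2 and Ucp3, which share 12 protein-coding genes, the single Ucp3 region was the only one in 4 samples. Around Elovl3 the share was highest in pre-adipocyte replicate 1, at 10.4%, against 2.96% to 4.24% in the other samples.

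Around Cidea, 3.48% and 4.40% was covered in pre-adipocytes, and 6.64% and 6.48% in mature adipocytes. Around Prdm16 it was 0 in both pre-adipocyte samples and 2.32% in each mature sample. Around Dio2 it was 0 and 0.92% in pre-adipocytes, and 2.00% and 3.96% in mature adipocytes. Over the 8 surroundings joined, the shares were 5.70% and 3.07% in pre-adipocytes, and 6.41% and 6.16% in mature adipocytes, a difference of 1.90 percentage points (exact permutation test, two-sided, p = 0.33). It was 0.588 without pre-adipocyte replicate 2 and 3.22 without pre-adipocyte replicate 1.

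**Figure D4:**
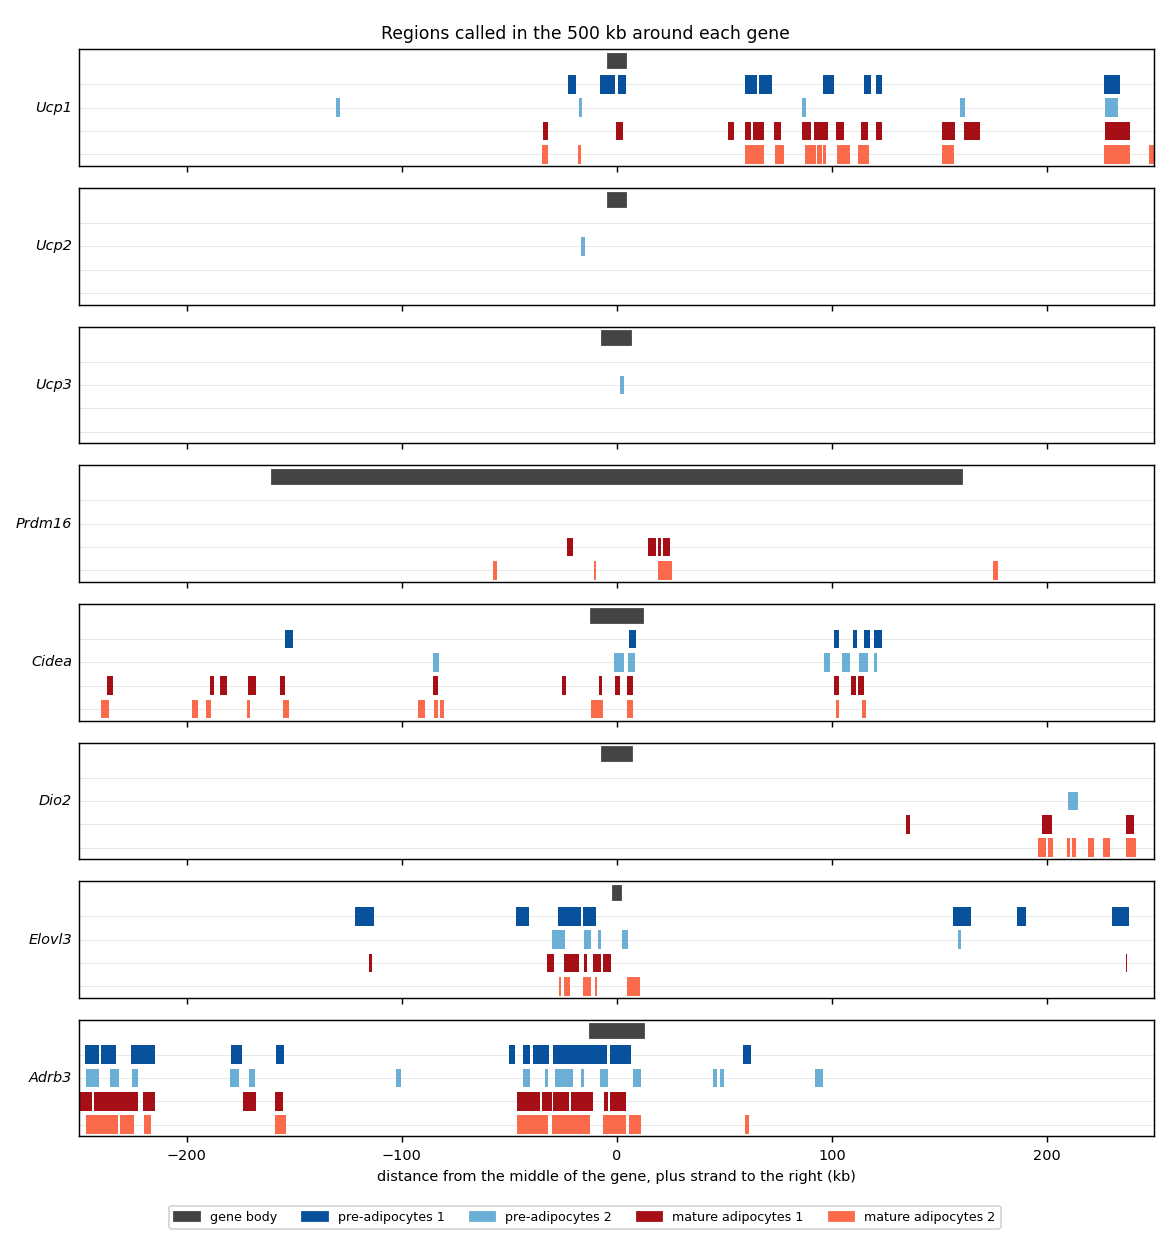
Regions called in the 500 kb centred on each gene, with the distance in kb from the middle of the gene on the x axis and the plus strand running to the right. Within each panel the rows are the gene body in grey and then the 4 samples in the order of the legend. The panels of Ucp2 and Ucp3 show 1 region between them, and that of Dio2 has regions at its right side alone.

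A list of 59 other genes of the thermogenic pathway, grouped by role, was described in the same way. A region lay within 10 kb of 26 and 21 of them in pre-adipocyte replicates 1 and 2, and of 29 in each mature replicate, against 33.7%, 29.3%, 40.0% and 40.2% of all genes. The difference of 5.5 genes had an exact permutation p of 0.33 (two-sided), and it was 3 genes without pre-adipocyte replicate 2. In all, 37 of the 59 had a region in at least 1 sample (51.9% of all genes) and 18 in all 4 (20.3% of all genes). The windows of the list were longer than those of all genes, with a median of 51541 bp against 37414 bp. Regions in both mature samples and no pre-adipocyte sample, as at Prdm16, were found at 2 of the 59, Gnas and Ppargc1b, and the converse at Ryr2. None of the 59 had the pattern of Ucp1. Of their 165 joined regions, 36 could be tested, and none passed with edgeR's quasi-likelihood test or DESeq2. With the edgeR test, 2 of the 36 had an unadjusted p under 0.05, against 1176 of all 12857. The median difference was −0.02 on the log2 scale.

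The genes of beta-adrenergic signalling with regions in both replicates of a condition included Adrb1, Gnas and Mapk14. Adrb1, the beta1-adrenergic receptor gene, was covered in all 4 samples, at 50.2% and 20.1% of its window in pre-adipocytes, and 52.4% and 46.6% in mature adipocytes. The kinase gene Mapk14 had regions in both mature samples and in pre-adipocyte replicate 1. Gnas, which encodes the stimulatory G protein that couples these receptors to cAMP, had 11.9% and 10.4% covered in mature adipocytes and none in pre-adipocytes.

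Of the 14 transcriptional regulators, 9 had regions in all 4 samples, against 20.3% of all genes. Several of them are long genes, with windows of 616713 bp at Mecom, 397830 bp at Thrb and 317786 bp at Zfp423, and the part of window length in this count was not tested. Those 9 were Ppargc1a, Ebf2, Irf4, Foxc2, Ctbp1, Mecom, Zfp423, Thra and Thrb. Ppargc1a, the coactivator of mitochondrial biogenesis, varied little, at 12.4% and 10.8% in pre-adipocytes and 12.3% in each mature sample. Irf4, a factor of fasting and cold responses in fat, had 16.4% and 12.2% in pre-adipocytes, and 56.1% and 41.3% in mature adipocytes. Zfp423, which represses the thermogenic programme of white fat cells, had 18.1% and 7.49% in pre-adipocytes, and 26.5% and 25.6% in mature adipocytes. Ppargc1b had 2.45% and 2.78% in mature adipocytes alone, and Nrip1, a corepressor, lacked a region in pre-adipocyte replicate 2 alone.

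None of the 5 secreted inducers had regions in both replicates of a condition. The share of all genes with such regions was not computed, so the counts in the groups below were not read as properties of those groups. Among 10 brown fat effectors and markers, Otop1, Kcnk3 and Acot11 did. Of 4 beige markers, Tmem26 and Tbx1 did, and both were broadly covered. At Tmem26 the share was 62.8% and 28.9% in pre-adipocytes, and 74.9% and 68.1% in mature adipocytes. At Tbx1 it was 56.1% and 35.1% in pre-adipocytes, and 61.4% and 47.8% in mature adipocytes. Among 12 relatives of the 8 genes, Slc25a27, Elovl2, Elovl4 and Elovl7 had such regions. Of 5 genes of creatine and calcium cycling, Gatm and Ryr2 did, and the Ryr2 regions, in pre-adipocytes alone, covered 0.697% and 0.732% of a window of 573844 bp.

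**Figure D5:**
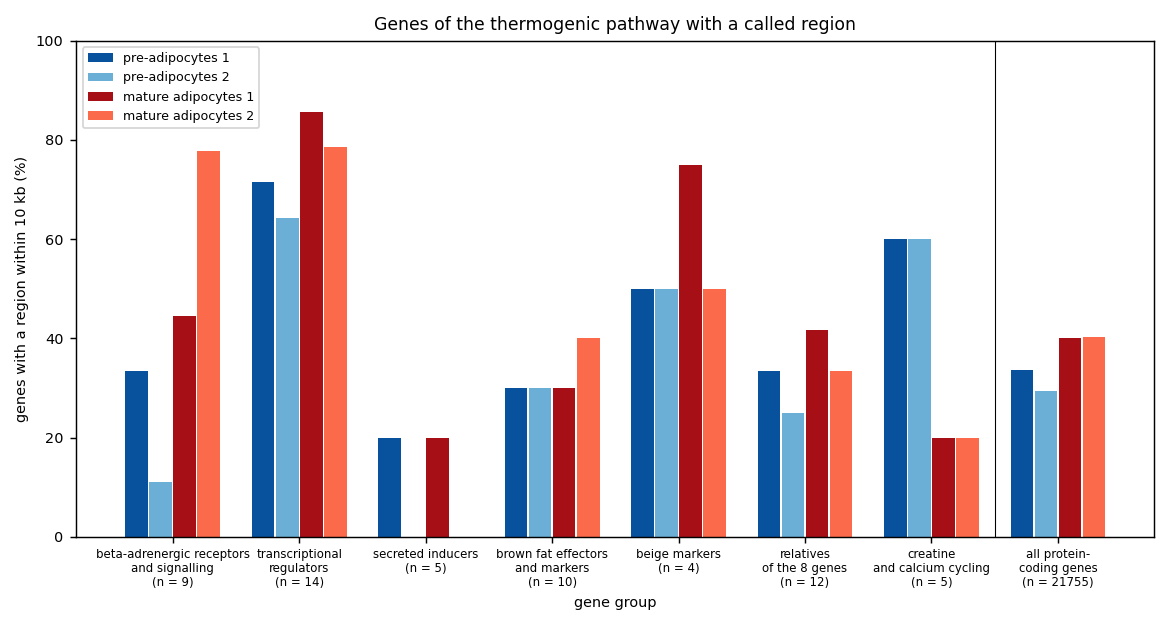
Share of the genes in each role group with a region within 10 kb, in percent, with 1 bar per sample and the number of genes under each group. The group at the right is all 21755 protein-coding genes, at 33.7%, 29.3%, 40.0% and 40.2%. The transcriptional regulators (9 to 12 of 14 genes) stand highest in each of the 4 samples, and the secreted inducers (0 or 1 of 5 genes) are lowest or tied for lowest.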

How the data were processed

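Per the labels and the methods of the study, reads were demultiplexed with bcl2fastq 2.16 and aligned to mm10 with Bowtie 1.1.2, keeping reads that mapped to a single place, duplicates were removed with Picard, and the authors called regions in each sample with SICER 1.1 against 1 library without antibody. The deposited tables hold raw counts of ChIP and control reads per region, the authors' p-value and the FDR derived from it (all under 0.001 here, while the methods give a threshold of 1%), and the authors' ratio of ChIP to control, a fold scaled by library size. Total read numbers, coverage and a table of the control library were not used here. Groups follow the sample titles. The methods call the replicates biological, but neither they nor the labels say how the cultures were kept apart, so p-values measure the spread between these samples.

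From these tables, regions (steps of 200 bp, printed 1-based) were intersected with GENCODE M21 genes, and relative library sizes were taken from the scaling of the fold. Counting intervals (95%, from exact Clopper-Pearson bounds of the ChIP share of reads) cover counting error only. Regions overlapping between samples were joined (62927), and the 12857 called in all 4 samples were tested with edgeR 4.0.16 (quasi-likelihood, TMM, offset of log called length, Benjamini-Hochberg) under R 4.3.3, with DESeq2 1.42.0 as an alternative. This test leaves out every stretch not called in some sample. On simulated counts with 200 changed regions among 12857, it recovered 79.1%, 98.5% and 100% of log2 changes of 0.5, 1 and 1.5, with 11 false calls. Those counts were drawn with the trended dispersion of these data, without spread particular to single regions or libraries. The recovered shares are therefore no measure of power at the regions named here. In the real data 11 regions passed, as many as the false calls of the simulation. Overlap functions were tested on simulated data. Exact permutation tests over the 4 samples were used for values with 1 number per sample, and 2 against 2 cannot reach a two-sided p under 0.33. Python 3.11.15 with pandas 2.3.3 was used.

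All 8 genes are named, and from the pathway list every gene with regions in both replicates of a condition and any gene with the sample pattern of Ucp1, except 1 that is not reported here. The genes and lists were chosen with earlier results of these data known. Alternatives varied the flanks, FDR, fold, overlap, normalization, read minimum, length offset and replicates. Sequences of the regions were not printed, since no genome was used here.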

Additional observations from a re-analysis of the deposited data

How the results depend on the processing

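The count of 11 joined regions passing the edgeR test depended most on the settings. It was 2 with DESeq2's Wald test, 12 with DESeq2's size factors, 27 with at least 50 ChIP reads in every sample, 3 without the offset of region length and 27 with a replicate block. Leaving out 1 library gave 1 to 224, with 224 without pre-adipocyte replicate 2, 112 without pre-adipocyte replicate 1, 5 without mature replicate 1 and 1 without mature replicate 2. A sample left alone in its condition was assumed to vary like the other condition. Deviations of same-numbered samples from their condition means had a correlation of 0.00775 over the joined regions called in all 4 samples. With 2 replicates per condition, the value for differently numbered samples, −0.00775, follows from that one and adds nothing. Whether the cultures were paired could not be decided from these values. The block changed no call at the 8 genes. Without the length offset, the log2 difference was −0.27 at Elovl3, 0.07 at Adrb3 and −0.69 at Cidea. When 1 library was left out, it ran from −0.00216 to 0.202 at Elovl3, from −0.0342 to 0.114 at Adrb3 and from −0.37 to −0.15 at Cidea. The mean difference in covered share, mature minus pre-adipocytes, was −13.2 percentage points at Ucp1 and ran from −32.0 to 5.69 when 1 library was left out, and at Adrb3 it was 7.58 and ran from −11.2 to 26.3. For these reversals the cause was not tested. The count of genes with a region, and the covered shares of the 8 windows and of their surroundings, kept their direction or went to 0 under every alternative run. Gene extents from protein-coding transcripts, an alternative chosen after seeing the data, were run for the first 2 of these. The Elovl3 share difference of 17.4 points ran from 0 (no flank, or a fold of at least 2) to 23.1 (FDR of at most 1e-05). The absence of a region is limited by the depth of each library.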
